A study of Mus musculus with 31 samples.

Results

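Direct-pathway and indirect-pathway projection neurons of the young mouse striatum were compared through the messages bound to their ribosomes. The arrays were chosen by their labels: 3 hold RNA of Drd1a-expressing cells and 4 hold RNA of Drd2-expressing cells, all from striatum of mice aged 6 weeks, so that 7 of the 31 arrays in the series belong to the comparison. The series applied translating ribosome affinity purification, in which ribosomes carrying a tag in a genetically defined cell type are pulled down together with their messages, and hybridised the RNA to exon arrays. Its other groups are the same cells from striatum at 2 years and from cortex at both ages, with 4 arrays per group. The submitters' own stated contrasts are those of age, and the contrast of the cell types at 6 weeks is not among them. The labels give no strain, sex, treatment, transgene, promoter or mouse line, and all groups share the purification, the fragmentation and the biotin labelling.

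The projection neurons of the striatum are inhibitory cells that make up most of its neurons and divide into the direct pathway, which projects to the substantia nigra and the internal pallidum, and the indirect pathway, which projects to the external pallidum. Direct-pathway neurons carry the D1 dopamine receptor, which raises cyclic AMP, and release substance P and dynorphin. Indirect-pathway neurons carry the D2 receptor, which lowers cyclic AMP, and release enkephalin. Drd2 is also made by the cholinergic interneurons of the striatum and by dopamine neurons of the midbrain.

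Values are the deposited log2 values, each relative to the median of its own gene over the 31 arrays, so they show differences between samples and not how abundant a message is. Differences are Drd1a minus Drd2, and a feature was called where limma gave a Benjamini-Hochberg adjusted p under 0.05 over all 16345 features together with a fold of at least 1.2. The number of arrays limits the precision, and the median standard error of the difference was 0.11. Nothing in the labels tells if each replicate is its own mouse, and p-values here reflect only how far the samples of a group lie apart. In the main fit limma estimated that spread over all 31 arrays in 8 groups, not from the compared arrays alone. An SE can therefore be wider or narrower than the array values printed beside it imply. Drd1a replicates 1 to 3 had array medians of 0.0095, 0 and 0.10, and Drd2 replicates 1 to 4 had medians of -0.0082, 0, 0.00048 and 0.091, so that 1 array of each cell type lay above the rest. Without the 6 arrays of the series whose median exceeded 0.05, which include these 2, 312 features were called in place of 499.

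The receptor genes that define the cells came first. Drd1, which codes for the D1 receptor and is feature 6813284 on chromosome 13, stood at 1.74, 1.60 and 1.56 in the 3 Drd1a arrays, against -2.69, -2.67, -2.50 and -3.13 in the 4 Drd2 arrays. It was 20.9-fold higher in Drd1a cells (log2 difference 4.38 ± 0.19 SE, adjusted p = 1.09e-15). Drd2, which codes for the D2 receptor and is feature 6988976 on chromosome 9, stood at -3.07, -4.22 and -3.10 in the Drd1a arrays, against 0.46, 0.50, 0.46 and 0.55 in the Drd2 arrays, and was 15.5-fold lower in Drd1a cells (-3.96 ± 0.19 SE, adjusted p = 4.22e-15). The groups did not overlap for either receptor, and all 7 arrays matched their labels. In RNA pulled from a mixed tissue, fewer cells of a type and less message per cell cannot be told apart.

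The start regions of both receptors and of 3 further pathway markers are shown because the receptors define the cell types and the other 3 carried a cyclic AMP motif. Those of Pdyn, Chrm4, Ebf1, Nt5e, Ttc12 and Meis1 were also searched, held no cyclic AMP motif and are not shown. Each sequence runs across the RefSeq start, most of it upstream, on build GRCm38.p6: Drd1 at chr13:54055609-54055908 on the minus strand, Drd2 at chr9:49340153-49340452 on the plus strand, Tac1 at chr6:7554811-7555110 on the plus strand, Isl1 at chr13:116309639-116309938 on the minus strand and Gpr6 at chr10:41072241-41072540 on the minus strand. Capitals mark matches to the cyclic AMP response element TGACGTCA, to its enkephalin gene variant TGCGTCA, to the EBF motif (TCCC and GGGA with 2 free bases between them) or to the MEIS motif TGACAG, each searched on both strands.
Drd1: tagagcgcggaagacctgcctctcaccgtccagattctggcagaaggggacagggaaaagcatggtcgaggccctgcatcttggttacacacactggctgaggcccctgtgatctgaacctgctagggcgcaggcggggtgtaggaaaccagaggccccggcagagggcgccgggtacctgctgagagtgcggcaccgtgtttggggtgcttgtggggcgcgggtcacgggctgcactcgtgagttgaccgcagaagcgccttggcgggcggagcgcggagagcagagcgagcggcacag
Drd2: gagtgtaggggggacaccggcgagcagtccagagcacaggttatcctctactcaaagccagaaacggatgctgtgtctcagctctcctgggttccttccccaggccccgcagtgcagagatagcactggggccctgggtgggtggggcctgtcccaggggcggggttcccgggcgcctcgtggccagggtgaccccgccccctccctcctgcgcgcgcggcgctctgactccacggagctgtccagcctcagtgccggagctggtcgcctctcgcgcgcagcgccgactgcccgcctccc
Tac1: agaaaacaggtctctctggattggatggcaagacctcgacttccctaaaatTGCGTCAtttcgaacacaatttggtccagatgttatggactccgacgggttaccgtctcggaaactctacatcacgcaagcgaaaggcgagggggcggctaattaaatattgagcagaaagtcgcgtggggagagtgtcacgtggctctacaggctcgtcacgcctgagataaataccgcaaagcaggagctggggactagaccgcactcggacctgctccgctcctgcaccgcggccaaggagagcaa
Isl1: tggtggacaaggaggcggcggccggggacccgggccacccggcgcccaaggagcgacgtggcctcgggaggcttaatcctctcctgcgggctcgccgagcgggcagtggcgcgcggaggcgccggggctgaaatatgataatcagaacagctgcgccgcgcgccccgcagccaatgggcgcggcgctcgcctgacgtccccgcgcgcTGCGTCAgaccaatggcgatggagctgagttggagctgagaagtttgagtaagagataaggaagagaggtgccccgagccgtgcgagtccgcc
Gpr6: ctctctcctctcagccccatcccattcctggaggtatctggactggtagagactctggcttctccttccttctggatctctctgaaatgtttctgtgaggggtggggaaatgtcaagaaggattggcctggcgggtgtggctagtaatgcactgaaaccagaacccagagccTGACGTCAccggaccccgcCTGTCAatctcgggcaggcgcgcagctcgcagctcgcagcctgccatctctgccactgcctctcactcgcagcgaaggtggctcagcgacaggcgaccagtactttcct
Tac1 held the variant TGCGTCA at position -199 from its start, and Isl1 held it at position -43. Gpr6 held TGACGTCA at position -78 and the MEIS motif on the other strand at position -59, and the windows of Drd1 and Drd2 held none of these letters. The variant TGCGTCA was present in 4.93% of 203 promoters of genes called higher in Drd1a cells, in 1.86% of 161 promoters of genes called lower and in 3.02% of 11856 promoters of measured genes. TGACGTCA was present in 2.46%, 1.24% and 2.51% of the same sets, the EBF motif in 1.48%, 1.86% and 1.01%, and the MEIS motif in 17.2%, 19.9% and 17.8%. Over all 27025 RefSeq promoters the shares were 1.88% for TGACGTCA, 2.19% for TGCGTCA, 0.914% for the EBF motif and 19.3% for the MEIS motif. The match is a description of letters and was not tested as a site.

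All 10 direct-pathway markers, among them Drd1 and its neighbour Sfxn1, were higher in Drd1a cells, with log2 differences of 1.10 to 4.44 and a median of 2.65, whereas 1.68% of all features were called higher and the median over all features was 0.020. Eya1, a transcriptional coactivator and phosphatase on chromosome 1, had the largest difference of any called gene in this direction. It stood at 3.76, 3.83 and 3.54 in Drd1a arrays, against -0.67, -0.87, -0.89 and -0.47 in Drd2 arrays, and was 21.6-fold higher in Drd1a cells (4.44 ± 0.14 SE, adjusted p = 4.86e-19). Chrm4, the M4 muscarinic receptor that opposes D1 signalling, stood at 1.67, 1.61 and 1.88 in Drd1a arrays, against -2.24, -1.67, -2.0 and -2.06 in Drd2 arrays, a 13.1-fold difference (3.71 ± 0.20 SE, adjusted p = 1.16e-13). For both genes the lowest Drd1a array lay more than 3 log2 units above the highest Drd2 array.

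The transcription factors of the direct-pathway list followed. Isl1, a LIM homeodomain factor needed for direct-pathway neurons to form, stood at 1.93, 2.13 and 1.87 in Drd1a arrays, against -1.35, -0.94, -0.41 and -1.14 in Drd2 arrays (7.65-fold higher, 2.94 ± 0.22 SE). Ebf1, an early B-cell factor that these neurons use during development, stood at 2.13, 2.22 and 2.09 in Drd1a arrays, against -0.69, -0.76, -0.23 and -0.68 in Drd2 arrays (6.68-fold higher, 2.74 ± 0.19 SE). The third factor, the zinc finger protein gene Zfp521, differed less, with 0.96, 0.97 and 0.73 in Drd1a arrays, against -0.47, -0.048, -0.16 and -0.19 in Drd2 arrays (2.15-fold higher, 1.10 ± 0.16 SE, adjusted p = 6.16e-05). For each of them every Drd1a array lay above every Drd2 array.

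Among the peptide precursors of the direct pathway, Tac1, which gives substance P, stood at 1.0, 0.97 and 0.99 in Drd1a arrays, against -1.42, -1.13, -1.19 and -2.10 in Drd2 arrays. Its 3 Drd1a values lay close together while Drd2 replicate 4 stood well below the other Drd2 arrays, and the difference was 2.45 ± 0.19 SE (5.45-fold higher, adjusted p = 2.96e-10). Pdyn, which gives dynorphin, stood at 1.28, 1.22 and 1.45 in Drd1a arrays, against -0.39, -0.51, -0.58 and 0 in Drd2 arrays, of which replicate 4 was here the highest (3.21-fold higher, 1.68 ± 0.17 SE, adjusted p = 7.42e-08). Slc35d3, a member of the nucleotide sugar transporter family, stood at 1.48, 1.37 and 1.67 in Drd1a arrays, against -1.33, -0.83, -0.75 and -0.52 in Drd2 arrays (5.16-fold higher, 2.37 ± 0.19 SE). The call of all 10 markers held without each array in turn and under each of the 16 alternatives tried.

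**Figure D1:**
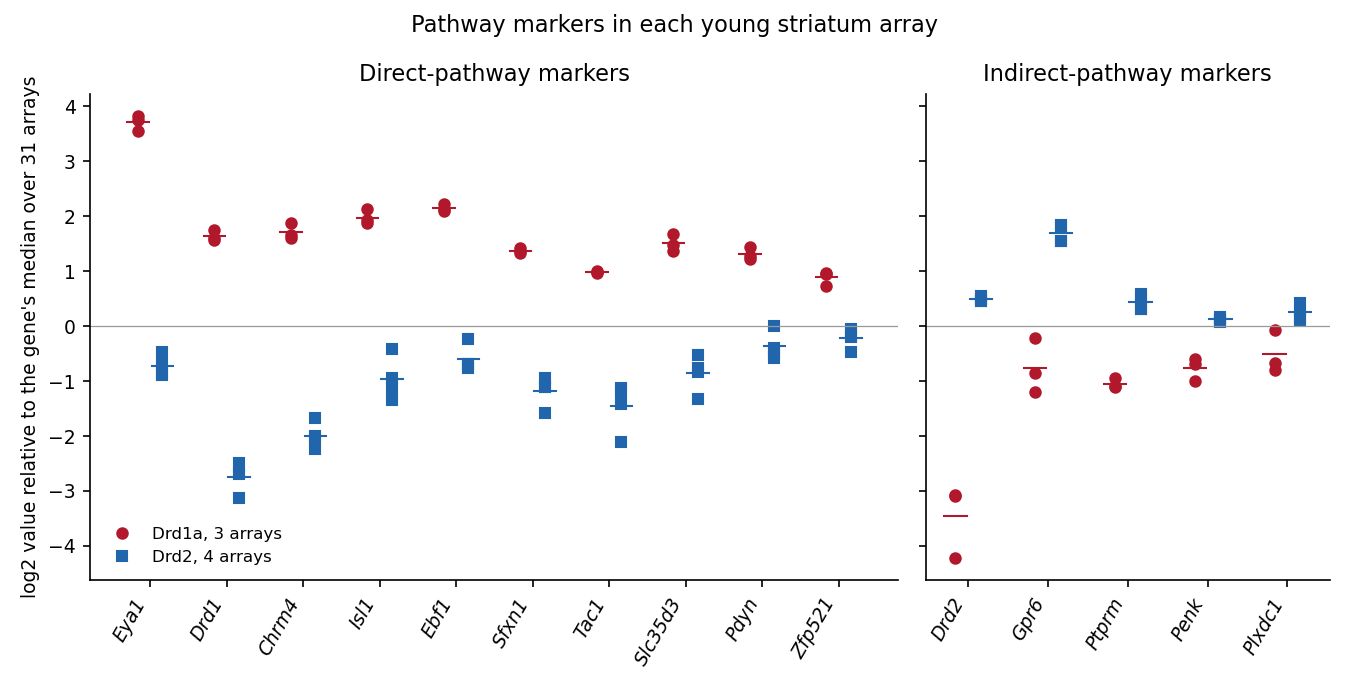
Deposited log2 value of each pathway marker relative to its median over 31 arrays (vertical axis) in the 3 Drd1a arrays (red circles) and the 4 Drd2 arrays (blue squares) of young striatum; horizontal lines are group means. For every direct-pathway marker the Drd1a arrays lie above the Drd2 arrays, and for every indirect-pathway marker they lie below, with Plxdc1 the closest at -0.079 in the highest Drd1a array and 0.11 in the lowest Drd2 array.

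All 5 measured indirect-pathway markers were lower in Drd1a cells, with a median log2 difference of -1.48, whereas 1.37% of all features were called lower. The adenosine receptor gene Adora2a and the genes Gpr52, Sp9 and Grik3 of the same list were not analysed here. Gpr6, an orphan receptor that signals through cyclic AMP, stood at -1.19, -0.85 and -0.22 in Drd1a arrays, against 1.56, 1.83, 1.55 and 1.84 in Drd2 arrays, and was 5.46-fold lower in Drd1a cells (-2.45 ± 0.26 SE, adjusted p = 1.83e-07). Ptprm, a receptor-type tyrosine phosphatase, stood at -1.11, -0.94 and -1.09 in Drd1a arrays, against 0.59, 0.32, 0.31 and 0.52 in Drd2 arrays (2.79-fold lower, -1.48 ± 0.11 SE).

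Penk, the enkephalin precursor, had a smaller difference than the receptors. It stood at -0.68, -0.995 and -0.60 in Drd1a arrays, against 0.11, 0.14, 0.084 and 0.16 in Drd2 arrays, which was 1.84-fold lower in Drd1a cells (-0.88 ± 0.092 SE, adjusted p = 1.5e-07). The 4 Drd2 arrays lay close together, and the groups did not overlap. Plxdc1, a plexin domain protein, stood at -0.66, -0.80 and -0.079 in Drd1a arrays, against 0.15, 0.11, 0.43 and 0.30 in Drd2 arrays (-0.76 ± 0.18 SE, adjusted p = 0.0133). Its call was lost without Drd1a replicate 1 (-0.69) or replicate 2 (-0.62), and with quantile normalization (-0.70), while the other 4 calls held under every alternative.

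Over all features, 499 of 16345 were called (3.05%), 275 higher and 224 lower in Drd1a cells. At 1.5-fold or more the counts were 119 higher and 82 lower, at 2-fold or more 38 and 25, and at 4-fold or more 9 and 10. The arrays of the groups did not overlap for 488 of the 499, against 11.2% of all features. The calls rest on the same arrays, so this share is no separate support for them. An unadjusted p under 0.05 was reached by 2055 features. The balance between directions depended on scaling: 55.1% of calls were higher as deposited, 47.4% with each array centred on its median (209 higher, 232 lower) and 44.8% with quantile normalization (151 higher, 186 lower). Without Drd1a replicate 1 the calls numbered 286 (160 higher, 126 lower), and without Drd1a replicate 3 they numbered 330 (177 higher, 153 lower). In a fit on the 7 arrays alone 334 features were called (180 higher, 154 lower), and these genes described below lost their call: Syt10, Chrm3, Bcl11b, Tacr1, Oprl1, Cck, Pde1a, Pde4dip, Sema6d, Cdh7, Cdhr1, Ptprf, Adra2c, Drd5, Grm7, Gnb2 and Gnb5.

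**Figure D2:**
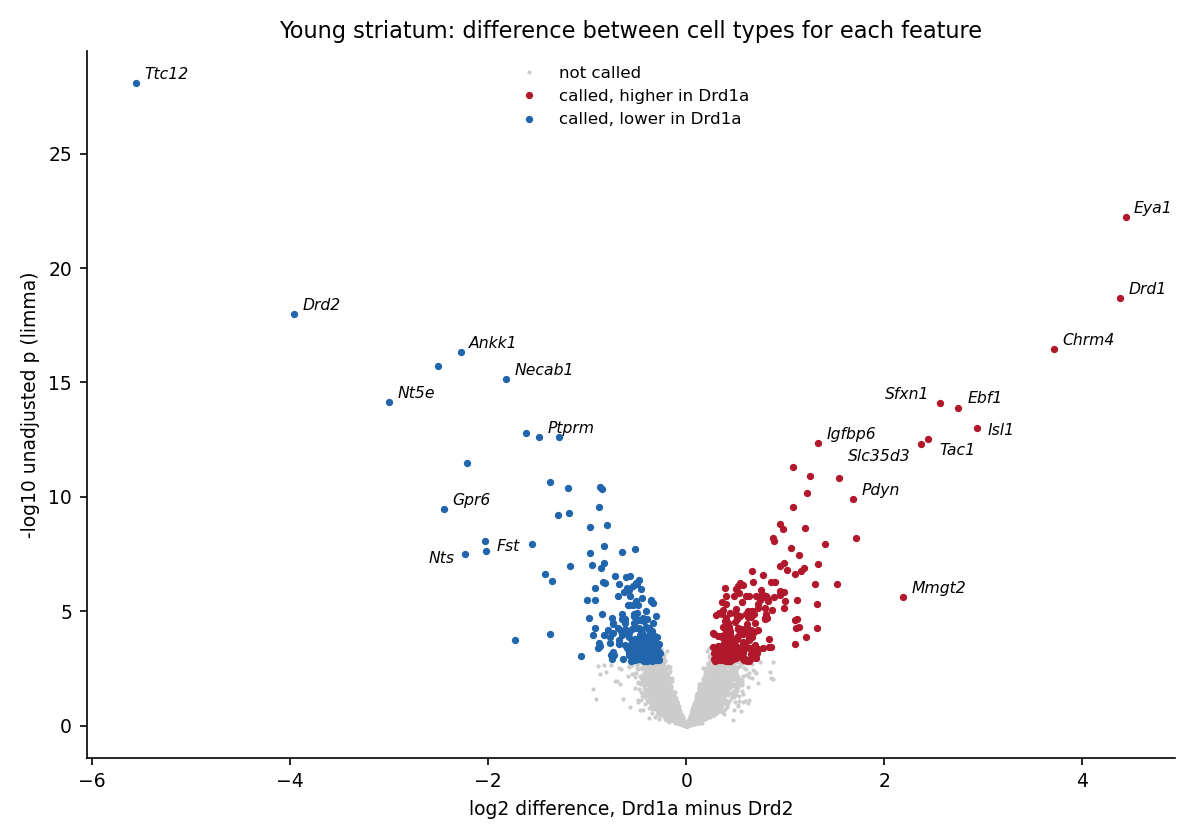
Each point is a feature, with its log2 difference Drd1a minus Drd2 in young striatum (horizontal axis) against -log10 of limma's unadjusted p (vertical axis); red points were called higher and blue points lower in Drd1a cells, and grey points were not called. Eya1, Drd1 and Chrm4 lie furthest to the right, and Ttc12, Drd2 and Nt5e furthest to the left among named genes.

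Beyond the markers, the largest differences in the direction of Drd1a cells belonged to genes of varied function. Here and for the opposite direction, genes were picked among those whose arrays did not overlap. Mmgt2, of a magnesium transporter family, stood at 0.44, 0.79 and 0.85 in Drd1a arrays, against -0.91, -2.46, -1.88 and -0.75 in Drd2 arrays, with a wide spread among the Drd2 arrays (4.57-fold higher, 2.19 ± 0.37 SE, adjusted p = 0.000352). Il1rapl2, an interleukin receptor accessory-like protein of neurons, stood at 1.67, 1.21 and 0.40 in Drd1a arrays, against -0.62, -0.78, -0.40 and -0.68 in Drd2 arrays (3.29-fold higher, 1.72 ± 0.21 SE). Here the spread was among the Drd1a arrays, of which replicate 3 was lowest.

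Stmn2, a stathmin that destabilises microtubules in neurons, stood at 0.055, 0.11 and 0.043 in Drd1a arrays, against -1.40, -1.22, -1.46 and -1.81 in Drd2 arrays (2.91-fold higher, 1.54 ± 0.14 SE). Igfbp6, a binding protein of insulin-like growth factors, stood at 0.058, 0 and 0.051 in Drd1a arrays, against -1.18, -1.38, -1.23 and -1.39 in Drd2 arrays (2.51-fold higher, 1.33 ± 0.10 SE). In both, replicates lay close together within each group relative to the gap between groups. Rasgrf2, a Ras exchange factor, was 2.88-fold higher (1.53 ± 0.24 SE), with -0.54, -0.53 and -0.19 in Drd1a arrays, against -2.33, -2.36, -1.18 and -1.91 in Drd2 arrays. Fstl5, a secreted follistatin-like protein, was 2.64-fold higher (1.40 ± 0.18 SE), Baalc 2.49-fold higher (1.32 ± 0.23 SE) and Efcab1, an EF-hand protein, 2.47-fold higher (1.30 ± 0.20 SE). Of Efcab1 the Drd1a arrays ran from 0.98 to 1.25, against -0.67 to 0.36 in the Drd2 arrays.

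In the opposite direction, Nt5e had the largest difference after Ttc12 and Drd2. It codes for the cell-surface enzyme CD73, which makes adenosine from AMP outside the cell. It stood at -1.90, -1.79 and -1.33 in Drd1a arrays, against 1.28, 1.28, 1.55 and 1.21 in Drd2 arrays, and was 8.01-fold lower in Drd1a cells (-3.002 ± 0.20 SE, adjusted p = 1.26e-11). Adk, the adenosine kinase that turns adenosine back into AMP, stood at -1.17, -1.58 and -1.26 in Drd1a arrays, against 0.14, -0.22, 0.030 and 0.19 in Drd2 arrays (2.59-fold lower, -1.37 ± 0.13 SE). Both enzymes were lower in Drd1a cells.

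Crabp2, which carries retinoic acid in the cell, stood at -0.63, -1.72 and -0.70 in Drd1a arrays, against 1.30, 1.48, 0.44 and 0.85 in Drd2 arrays (4.09-fold lower, -2.03 ± 0.25 SE). Fst, the activin-binding follistatin, stood at -0.36, -0.20 and -0.30 in Drd1a arrays, against 1.84, 1.90, 1.60 and 1.60 in Drd2 arrays (4.07-fold lower, -2.02 ± 0.26 SE). Absence of overlap was a condition for naming both. Necab1, a neuronal calcium-binding protein, stood at -1.71, -1.40 and -1.54 in Drd1a arrays, against 0.12, 0.35, 0.15 and 0.45 in Drd2 arrays (3.53-fold lower, -1.82 ± 0.11 SE). Mro stood at -0.56, -1.17 and -1.26 in Drd1a arrays, against 1.08, 1.61, 1.06 and 1.11 in Drd2 arrays (4.62-fold lower, -2.21 ± 0.19 SE). Drd2 replicate 2 was the highest array for Mro.

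Smaller differences of the same sign included enzymes and membrane proteins. Fig4, a phosphoinositide phosphatase, was 3.06-fold lower (-1.62 ± 0.12 SE) and S100a10, an annexin partner known in mice for its link to serotonin receptors, 2.69-fold lower (-1.43 ± 0.21 SE). Me2, the mitochondrial malic enzyme, was 2.56-fold lower (-1.36 ± 0.21 SE) and Upb1, an enzyme of pyrimidine breakdown, 2.45-fold lower (-1.29 ± 0.14 SE). Trpc4, a cation channel, was 2.26-fold lower (-1.18 ± 0.17 SE) and Fam163b 2.27-fold lower (-1.18 ± 0.13 SE). The calls of these 6 genes held under each alternative.

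Genes next to the receptors on the chromosome differed as well, in the direction of the receptor. Ttc12, a tetratricopeptide repeat protein gene, lies beyond Ankk1 from Drd2 on chromosome 9 in the RefSeq order and had the largest difference of all features. It stood at -4.87, -4.92 and -4.82 in Drd1a arrays, against 0.58, 0.76, 0.64 and 0.75 in Drd2 arrays, which was 47-fold lower in Drd1a cells (-5.55 ± 0.11 SE, adjusted p = 1.33e-24). Ankk1, an ankyrin repeat kinase gene directly beside Drd2, stood at -1.33, -1.43 and -1.18 in Drd1a arrays, against 0.81, 1.16, 0.72 and 1.15 in Drd2 arrays (4.84-fold lower, -2.27 ± 0.12 SE). Sfxn1, which codes for a mitochondrial serine transporter and lies directly beside Drd1 on chromosome 13, stood at 1.42, 1.34 and 1.36 in Drd1a arrays, against -0.95, -1.10, -1.10 and -1.58 in Drd2 arrays (5.89-fold higher, 2.56 ± 0.17 SE, adjusted p = 1.26e-11).

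Most other genes nearby were not called. On the other side of Drd1, Msx2 had a log2 difference of -0.021 ± 0.11 SE, and beyond Sfxn1 the genes Hrh2 (0.24 ± 0.17 SE) and Cplx2 (0.17 ± 0.068 SE) were not called. Beyond Ttc12, Ncam1 had 0.21 ± 0.12 SE, and on the other side of Drd2 the genes Tmprss5 (0.033 ± 0.093 SE) and Zw10 (-0.11 ± 0.091 SE) were not called. Between Tmprss5 and Drd2, the predicted gene Gm4894 had -0.36 ± 0.12 SE and was not called. Of the 9 listed neighbours, 1 was called higher and 2 lower, where 3.05% of all features were called. Among the measured genes up to 5 places away Usp28, named after its value was seen, was called lower at -0.49. The labels do not give the constructs that tagged the ribosomes, so their extent around these genes is not known here. The same 3 neighbours were called in the same direction in the old striatum and the young cortex (Ttc12 -5.63 and -5.13, Ankk1 -2.49 and -2.20, Sfxn1 1.70 and 1.83).

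**Figure D3:**
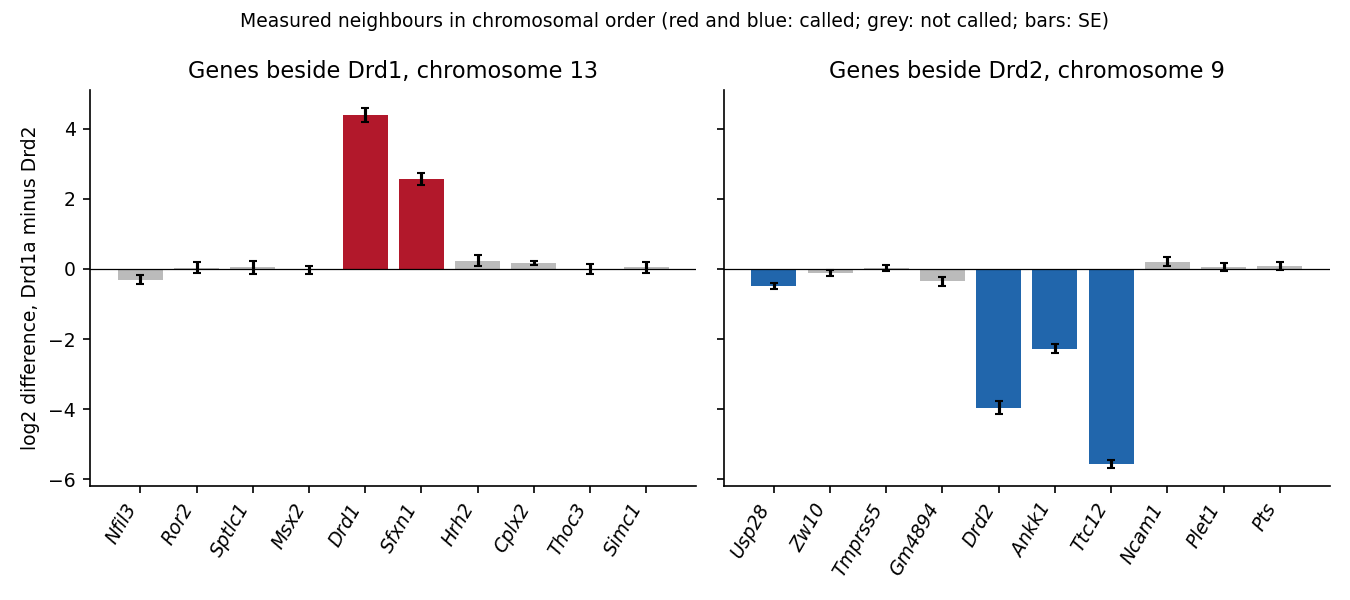
Log2 difference Drd1a minus Drd2 in young striatum (vertical axis, bars with SE) of the measured genes around Drd1 on chromosome 13 and around Drd2 on chromosome 9, in RefSeq order. Sfxn1 stands high beside Drd1, Ankk1 and Ttc12 stand low beside Drd2, and the differences of the other neighbours lie between -0.49 and 0.24.

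Over all features 3.05% were called, the share against which this list and those below are set. The lists were chosen with earlier results of these data known, and some repeat the pathway markers. A share above 3.05% is therefore no separate support. Of 28 neuropeptide precursors, 4 were higher and 2 lower in Drd1a cells (21.4% called), with a median of 0.091. Beside Tac1, Pdyn and Penk they included Nts, the neurotensin precursor, which stood at -0.82, -2.14 and -1.34 in Drd1a arrays, against 0.79, 0.76, 0.78 and 0.88 in Drd2 arrays (4.71-fold lower, -2.24 ± 0.30 SE, adjusted p = 1.03e-05). The Drd2 arrays lay close together and the Drd1a arrays spread over more than 1 log2 unit. Scg2, a secretogranin stored with peptides in dense-core vesicles, stood at 0.011, -0.023 and -0.020 in Drd1a arrays, against -0.94, -0.80, -0.90 and -0.996 in Drd2 arrays (1.87-fold higher, 0.90 ± 0.14 SE). Cck, the cholecystokinin precursor, was called higher (0.51 ± 0.14 SE, adjusted p = 0.039). That call was lost without Drd1a replicate 1 (0.40) or 3 (0.52), without Drd2 replicate 1 (0.48), 3 (0.46) or 4 (0.51), and with arrays centred on their medians (0.49) or quantile normalized (0.33).

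Among 30 measured receptors for monoamines, acetylcholine, glutamate and GABA, 4 were higher and 4 lower (26.7% called), with a median of 0.084. The adenosine receptors of the list were not analysed here. After Drd1, Chrm4 and Drd2 the largest difference was that of Chrm3, the M3 muscarinic receptor, which stood at -1.67, -1.68 and -1.11 in Drd1a arrays, against 1.03, 0.60, -0.97 and 0.31 in Drd2 arrays (-1.73 ± 0.40 SE, adjusted p = 0.0104). Drd2 replicate 3 lay near the Drd1a values and the other 3 Drd2 arrays far above, and the call was lost without Drd1a replicate 1 (-1.64), with quantile normalization (-1.57), without the 6 arrays of high median (-1.89) and in the fit on the 7 arrays alone (-1.73, adjusted p = 0.0518 by limma). Hrh3, the H3 histamine receptor, was 1.5-fold lower (-0.58 ± 0.094 SE, adjusted p = 0.000203), with -0.024, -0.22 and -0.16 in Drd1a arrays, against 0.53, 0.41, 0.40 and 0.43 in Drd2 arrays. The 3 further calls, named after their values were seen, were near the threshold: Drd5, the D5 dopamine receptor, at -0.49 ± 0.14 SE (adjusted p = 0.0412), Adra2c, an adrenergic receptor, at 0.42 ± 0.11 SE (adjusted p = 0.0344), and Grm7, a metabotropic glutamate receptor, at 0.28 ± 0.078 SE (adjusted p = 0.0424). Grm7 lost its call without any of the 7 arrays (0.24 to 0.30), Drd5 kept it only without Drd2 replicate 1 or 3 (-0.52 to -0.39 in the other 5 fits), and Adra2c lost it without Drd1a replicate 1 (0.41) or 3 (0.39) or Drd2 replicate 1 (0.33) or 2 (0.42). Drd3 at 0.48 ± 0.21 SE and Chrm1 at -0.074 ± 0.14 SE were not called.

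Of 25 opioid, cannabinoid and peptide receptors, 3 were higher and 1 lower, with a median of 0.086, and none of these calls held without each array in turn. Npy2r, a neuropeptide Y receptor, had a difference of 0.60 ± 0.15 SE, which lost its call without Drd1a replicate 1 (0.56) or 3 (0.50) or Drd2 replicate 1 (0.53). Sstr4, a somatostatin receptor, had 0.49 ± 0.12 SE and lost its call without Drd1a replicate 1 (0.50) or 3 (0.45) or Drd2 replicate 1 (0.45) or 2 (0.45). Oprl1, the nociceptin receptor, had 0.45 ± 0.12 SE and kept its call only without Drd1a replicate 1 or Drd2 replicate 4, with values of 0.34 to 0.47 in the 5 fits that lost it. Tacr1, the receptor of substance P, was lower at -0.52 ± 0.12 SE and lost its call without Drd1a replicate 3 (-0.46) or Drd2 replicate 4 (-0.42). Of 23 orphan receptors 2 were higher and 1 lower (13.0% called), with a median of 0.020. They were Gpr12 (0.71 ± 0.12 SE), a relative of Gpr6, with 0.87, 0.79 and 0.69 in Drd1a arrays, against 0.40, -0.14, 0.086 and -0.059 in Drd2 arrays, then Gpr6 itself, and Gpr176 (0.51 ± 0.14 SE), whose call held only without Drd1a replicate 2 or Drd2 replicate 2, with values of 0.43 to 0.51 in the other 5 fits.

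Downstream of the receptors, 3 of 45 dopamine and cyclic AMP signalling genes were higher and 5 lower (17.8% called), with a median of -0.015. Gnb4, a beta subunit of G proteins, stood at 0.066, 0.35 and -0.14 in Drd1a arrays, against -1.16, -1.24, -1.12 and -1.43 in Drd2 arrays (2.51-fold higher, 1.33 ± 0.19 SE). Prkg1, the cyclic GMP-dependent kinase, stood at -0.28, 0.14 and -0.28 in Drd1a arrays, against -0.89, -1.33, -0.84 and -1.50 in Drd2 arrays (2-fold higher, 1.001 ± 0.17 SE), and its call was lost with quantile normalization (0.69). The subunits of the soluble guanylyl cyclase, which makes cyclic GMP, were both lower. Gucy1a1 stood at -0.78, -0.64 and -0.59 in Drd1a arrays, against 0.13, 0, 0.22 and 0.41 in Drd2 arrays (1.82-fold lower, -0.86 ± 0.12 SE), and Gucy1b1 was 1.41-fold lower (-0.49 ± 0.093 SE).

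Gprin3, a G protein-regulated inducer of neurite outgrowth, had -0.54 ± 0.14 SE and lost its call without Drd1a replicate 1 (-0.55) or 3 (-0.49) or Drd2 replicate 1 (-0.53) or 4 (-0.47). The last 3 calls of that list were named after their values were seen. Gnb2 (-0.36 ± 0.088 SE) and Gnb5 (-0.34 ± 0.097 SE), further beta subunits, were lower, and Prkar1b (0.40 ± 0.078 SE), a regulatory subunit of protein kinase A, was higher. Gnb2 lost its call without Drd1a replicate 3 (-0.30), and Gnb5 lost it without any of the 7 arrays (-0.38 to -0.32). Core components that both pathways share did not pass the test: Ppp1r1b, the kinase and phosphatase target DARPP-32, had -0.031 ± 0.085 SE, Adcy5, the main striatal adenylyl cyclase, 0.26 ± 0.16 SE, and Gnal, the olfactory-type G protein, -0.19 ± 0.068 SE.

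Of 23 cyclic nucleotide phosphodiesterases, which end these signals, 2 were higher and 1 lower (13.0% called), with a median of 0.032. Pde1a stood at -1.08, -0.71 and -0.19 in Drd1a arrays, against -2.03, -1.70, -1.16 and -2.26 in Drd2 arrays (1.12 ± 0.22 SE, adjusted p = 0.00203), with ranges that nearly met, and was 0.68 with quantile normalization and not called without the 6 arrays of high median (0.73). Pde9a, which breaks down cyclic GMP, stood at 0.27, 0.20 and 0.22 in Drd1a arrays, against -0.79, -0.51, -0.34 and -0.56 in Drd2 arrays (1.72-fold higher, 0.78 ± 0.12 SE). Pde4dip, a protein that binds a phosphodiesterase and is not itself an enzyme, had -0.46 ± 0.10 SE and lost its call without Drd1a replicate 1 (-0.41). Among 21 RGS proteins (9.52% called), which speed the end of G protein signals, Rgs6 was higher (0.66 ± 0.16 SE) and Rgs8 lower (-0.40 ± 0.11 SE), and the list median was -0.029. Rgs6 lost its call without Drd1a replicate 1 (0.62) or 3 (0.68) or Drd2 replicate 2 (0.60) or 3 (0.60), and Rgs8 lost it without any of the 7 arrays, with values of -0.45 to -0.33.

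Of 34 transcription regulators of projection neurons, 4 were higher and 3 lower (20.6% called), with a median of -0.018. Foxp2, a forkhead factor, joined Isl1, Ebf1 and Zfp521, with 0.49, 0.60 and 0.44 in Drd1a arrays, against -0.44, -0.69, -0.66 and -0.48 in Drd2 arrays (2.11-fold higher, 1.08 ± 0.11 SE, adjusted p = 1.5e-07). Meis1, a homeobox factor, stood at 0, -0.55 and -0.72 in Drd1a arrays, against 0.91, 1.31, 1.30 and 1.002 in Drd2 arrays (2.94-fold lower, -1.56 ± 0.19 SE, adjusted p = 4.43e-06). The related forkhead gene Foxp1, which marks projection neurons of both pathways, had a small difference of the opposite sign to Foxp2 (-0.40 ± 0.094 SE, adjusted p = 0.0133), lost without Drd1a replicate 1 (-0.37) or Drd2 replicate 4 (-0.36). Bcl11b, another shared factor, had -0.40 ± 0.11 SE (adjusted p = 0.0447) and kept its call only without Drd1a replicate 3, with values of -0.43 to -0.35 in the other 6 fits.

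Of 73 potassium channel subunits 1 was higher and 1 lower (2.74%, against 3.05% of all features), with a median of 0.052. Kcnj3, a subunit of channels opened by G proteins, stood at -0.95, -0.88 and -1.05 in Drd1a arrays, against -1.98, -1.82, -1.95 and -1.88 in Drd2 arrays (1.93-fold higher, 0.95 ± 0.15 SE), and was not called with quantile normalization (0.48). Kcnk2, a leak channel, stood at 0, -0.094 and -0.0064 in Drd1a arrays, against 0.75, 0.88, 0.79 and 0.79 in Drd2 arrays (1.78-fold lower, -0.84 ± 0.13 SE). In both genes the replicates of a group lay close together relative to the gap between groups.

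Of 32 sodium and calcium channel subunits, 2 beta subunits of calcium channels were lower (6.25%, against 3.05% of all features), with a list median of -0.0069. Cacnb1 had -0.33 ± 0.058 SE, and Cacnb2 had -0.44 ± 0.10 SE with its call lost without Drd1a replicate 2 (-0.42). Gabra3, 1 of 18 GABA-A and glycine receptor subunits (5.56% called, median 0.051), was the only called member and lower, with -1.88, -2.38 and -1.70 in Drd1a arrays, against -0.90, -1.04, -0.61 and -1.49 in Drd2 arrays (1.97-fold lower, -0.98 ± 0.19 SE). Grik2, a kainate receptor subunit, was the only called member of 14 ionotropic glutamate receptor subunits (7.14% called, median 0.053), with 1.02, 0.82 and 0.87 in Drd1a arrays, against 0.45, 0.034, 0.21 and 0.020 in Drd2 arrays (1.65-fold higher, 0.72 ± 0.13 SE).

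Of 19 synaptotagmins, the calcium sensors and tethers of vesicle release, 3 were higher in Drd1a cells and none lower (15.8% called, against 3.05% of all features), with a median of 0.12. Syt9 stood at 1.08, 0.95 and 0.74 in Drd1a arrays, against 0.097, -0.083, 0.020 and -0.27 in Drd2 arrays (1.97-fold higher, 0.98 ± 0.11 SE). Syt7 stood at 0.26, -0.077 and 0.23 in Drd1a arrays, against -0.60, -0.54, -0.43 and -0.49 in Drd2 arrays (1.58-fold higher, 0.66 ± 0.13 SE). Syt10 had the widest spread, with 0.45, 0.31 and 0 in Drd1a arrays, against -0.89, -0.42, -0.69 and -2.29 in Drd2 arrays (1.33 ± 0.28 SE, adjusted p = 0.00435). Drd2 replicate 4 was its lowest array, and the difference was 1.04 and not called with quantile normalization, nor was it called in the fit on the 7 arrays alone (1.33, adjusted p = 0.116 by limma).

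Of 54 axon guidance and adhesion genes, 3 were higher and 3 lower (11.1% called), with a median of 0.14. Lingo2, a leucine-rich repeat protein of synapses, stood at 1.03, 0.75 and 0.62 in Drd1a arrays, against -0.57, -0.39, -0.58 and -0.28 in Drd2 arrays (2.38-fold higher, 1.25 ± 0.11 SE). Nrp1, the semaphorin co-receptor, stood at -0.50, -0.57 and -0.53 in Drd1a arrays, against 0.26, 0.23, 0.066 and -0.11 in Drd2 arrays (1.57-fold lower, -0.65 ± 0.12 SE), and Nrxn2, a presynaptic neurexin, was 1.77-fold lower (-0.82 ± 0.13 SE). The receptor phosphatase Ptprf, named after its value was seen, was called at 0.32 ± 0.090 SE and kept its call only without Drd1a replicate 2 (0.27 to 0.33 in the other 6 fits). Robo2, a Slit receptor, was called at 0.39 ± 0.090 SE, lost without Drd1a replicate 1 (0.36) and with arrays centred on their medians (0.37). Among 26 semaphorins and plexins (7.69% called, median 0.078), Sema6d was higher (0.56 ± 0.14 SE) and Sema3e lower (-0.62 ± 0.15 SE). Sema6d lost its call without Drd1a replicate 1 (0.45) or 3 (0.56) or Drd2 replicate 1 (0.49) or 2 (0.49), and Sema3e without Drd1a replicate 2 (-0.49) or Drd2 replicate 4 (-0.57). Of 52 protocadherins and cadherins (median 0.018), 3.85% were called, near the 3.05% of all features. They were Cdh7 (0.50 ± 0.13 SE) and Cdhr1 (0.35 ± 0.089 SE), both higher and both lost with quantile normalization (0.36 and 0.31). Cdh7 also lost its call without Drd1a replicate 1 (0.48) or 3 (0.43) or Drd2 replicate 1 (0.39) or 4 (0.49), and Cdhr1 without Drd1a replicate 1 (0.35) or 3 (0.29) or Drd2 replicate 1 (0.32), 2 (0.33) or 3 (0.34). Limma called 0 of 22 Eph receptors and ephrins (median 0.026), of which 2 had an unadjusted p under 0.05.

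Of 20 general projection neuron markers, which include the pathway peptides Tac1 and Penk, Tac1 was higher and Penk, Gad1, Bcl11b and Foxp1 were lower, with a median of -0.11. Gad1, which makes GABA, stood at -0.54, -0.16 and -0.24 in Drd1a arrays, against 0.099, 0.15, 0.19 and 0.21 in Drd2 arrays (-0.48 ± 0.10 SE, adjusted p = 0.0045), and was not called without Drd1a replicate 1 (-0.36). Of 11 markers of striosomes, the patches of striatum set in the surrounding matrix, Pdyn was the only call (median 0.10), and the mu opioid receptor gene Oprm1 had 0.021 ± 0.077 SE. Of 7 matrix markers, Sv2b, a synaptic vesicle protein, was the only call (0.50 ± 0.094 SE, median 0.16). Limma called 0 of 25 immediate early genes, whose messages follow neuronal firing, with 4 at an unadjusted p under 0.05 and a median of -0.015. Egr3 had the largest difference among them (-0.65 ± 0.20 SE, adjusted p = 0.0786).

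Markers of other cells were read in the same arrays. Limma called 0 of 14 astrocyte, 0 of 16 oligodendrocyte and 0 of 9 endothelial and mural markers, none with an unadjusted p under 0.05, and 0 of 11 microglia markers, with 1 at that level. Their list medians were 0.064, 0.043, 0.022 and 0.024. The mean over the oligodendrocyte list ran from -0.31 to 0.30 in the Drd1a arrays, against -0.21 to 0.16 in the Drd2 arrays, so the groups overlapped and spread widely. The astrocyte mean ran from -0.43 to -0.073 in Drd1a arrays, against -0.45 to -0.29 in Drd2 arrays. Limma also called 0 of 8 dopaminergic neuron markers, none at an unadjusted p under 0.05 (median 0.058).

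Of 8 cholinergic interneuron markers 3 were lower in Drd1a cells, where 1.37% of all features were called lower, and the list median was -0.32. The list mean ran from -0.25 to 0.0068 in Drd1a arrays, against 0.11 to 0.25 in Drd2 arrays, without overlap. Such separation was not particular to this list. The striosome mean ran from 0.13 to 0.26 in Drd1a arrays, against -0.15 to 0.069 in Drd2 arrays. The matrix mean ran from 0.093 to 0.16, against -0.084 to 0.029. Slc5a7, the choline transporter, had -0.76 ± 0.20 SE, Ecel1, an endopeptidase-like protein, -0.52 ± 0.15 SE, and Slc17a8, the glutamate transporter of these interneurons, -0.43 ± 0.11 SE. Slc5a7 and Ecel1 lost their calls without Drd1a replicate 1 (-0.80 and -0.51), 2 (-0.63 and -0.48) or 3 (-0.84 and -0.57) and without Drd2 replicate 2 (-0.65 and -0.45) or 3 (-0.75 and -0.55), and Ecel1 also without Drd2 replicate 4 (-0.49). Slc17a8 lost its call without Drd1a replicate 1 (-0.37) or 2 (-0.41) or Drd2 replicate 2 (-0.40) or 3 (-0.40). Chat, the acetylcholine-making enzyme that defines the type, had -0.064 ± 0.16 SE and was not called, and Slc18a3, the vesicular transporter, had -0.83 ± 0.25 SE (adjusted p = 0.0621). The part of these interneurons in the other differences was not tested.

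Markers of GABAergic interneurons and of cortical excitatory neurons had positive list medians. The mean of the GABAergic interneuron list ran from -0.54 to -0.083 in Drd1a arrays, against -0.59 to -0.43 in Drd2 arrays, and Cck was the only call among 13 members (median 0.17). The cortical excitatory list had a mean of -0.75 to -0.47 in Drd1a arrays, against -0.94 to -0.69 in Drd2 arrays, with Rasgrf2 higher and Tle4, a corepressor of deep-layer neurons, lower (-0.60 ± 0.090 SE) among 11 members (median 0.15). Slc17a7, the vesicular glutamate transporter of cortical excitatory neurons, had 0.54 ± 0.21 SE. The part of such cells in the differences was not tested.

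**Figure D4:**
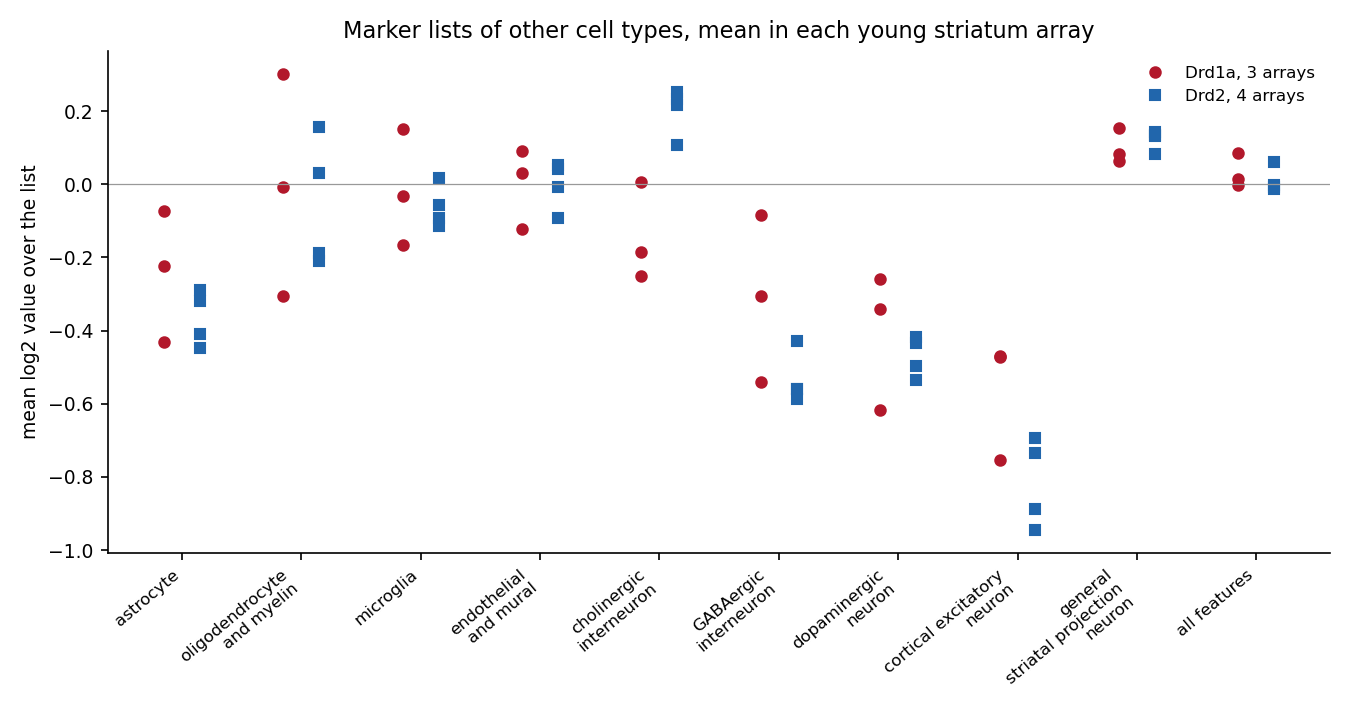
Mean log2 value over each marker list (vertical axis, relative to each gene's median over 31 arrays) in the 3 Drd1a arrays (red circles) and the 4 Drd2 arrays (blue squares) of young striatum. The groups overlap for astrocyte, oligodendrocyte, microglia and endothelial lists, while the cholinergic list runs from -0.25 to 0.0068 in Drd1a arrays and from 0.11 to 0.25 in Drd2 arrays.

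The same contrast at 2 years used 8 other arrays, 4 per cell type, and called 459 features (2.81%), 266 higher (1.63%) and 193 lower (1.18%). The arrays of the young and old contrasts are separate, although all share the spread estimated in the fit. Of the 499 features called at 6 weeks, 455 (91.2%) had the same sign at 2 years, 192 were called the same way and 0 the opposite way. The share of all features with the same sign is not given here. The shared 192 were 38.5% of the calls at 6 weeks and 41.8% of those at 2 years. The features called at 6 weeks had a median absolute difference of 0.52 in young striatum and 0.30 in old striatum. They were picked on the young arrays, which by itself favours a larger value there, so these medians do not compare the ages.

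Whether the difference between the cell types itself differed with age was tested as an interaction, which called 12 features (0.0734%), 8 with a larger value at 6 weeks (0.0489%) and 4 with a smaller one (0.0245%). Drd1 differed by 4.38 in young striatum and by 2.07 ± 0.18 SE in old striatum, an interaction of 2.31 ± 0.26 SE (adjusted p = 2.9e-05). Its Drd1a means were 1.63 ± 0.095 (SD, n = 3) in young and 1.74 ± 0.099 (SD, n = 4) in old arrays, and its Drd2 means were -2.75 ± 0.27 (SD, n = 4) in young and -0.34 ± 0.24 (SD, n = 4) in old arrays, so the ages lay apart in the Drd2 arrays. Chrm4 showed the same layout, with a difference of 3.71 in young and 1.84 ± 0.18 SE in old striatum (1.87 ± 0.27 SE, adjusted p = 0.00155). With quantile normalization these interactions were 1.77 and 1.41 and were not called, and that of Chrm4 was 1.86 and not called without the 6 arrays of high median.

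The direct-pathway peptide gene Tac1 differed by 2.45 in young and 1.14 ± 0.17 SE in old striatum (1.30 ± 0.26 SE, adjusted p = 0.036), and the channel gene Kcnj3 by 0.95 in young and -0.33 ± 0.14 SE in old striatum (1.28 ± 0.21 SE, adjusted p = 0.00604). The call of Tac1 held only without Drd2 replicate 2 or 3 and was lost without any other array, with values of 1.09 to 1.32. The Tac1 call was also lost with arrays centred on their medians (1.27), quantile normalized (1.06) or without the 6 arrays of high median (1.04). Using only the 15 striatum arrays it was lost too, without (1.30) or with a replicate block (1.27). That of Kcnj3 was lost with quantile normalization (0.80) and without the 6 arrays of high median (1.26). Drd2 itself had no called interaction, with -3.96 in young and -3.82 ± 0.17 SE in old striatum (-0.14 ± 0.25 SE), nor had Eya1, with 4.44 in young and 4.17 ± 0.13 SE in old striatum (0.26 ± 0.20 SE). Pdyn differed by 1.68 in young and 1.87 ± 0.16 SE in old striatum, Gpr6 by -2.45 and -1.88 ± 0.24 SE, and Penk by -0.88 and -0.47 ± 0.085 SE, none with a called interaction. Necab1 differed by -1.82 in young and -0.87 ± 0.10 SE in old striatum (-0.95 ± 0.15 SE, adjusted p = 0.00414), with the interaction not called using only the 15 striatum arrays (-0.95), with quantile normalization (-0.71) or without the 6 arrays of high median (-0.88).

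**Figure D5:**
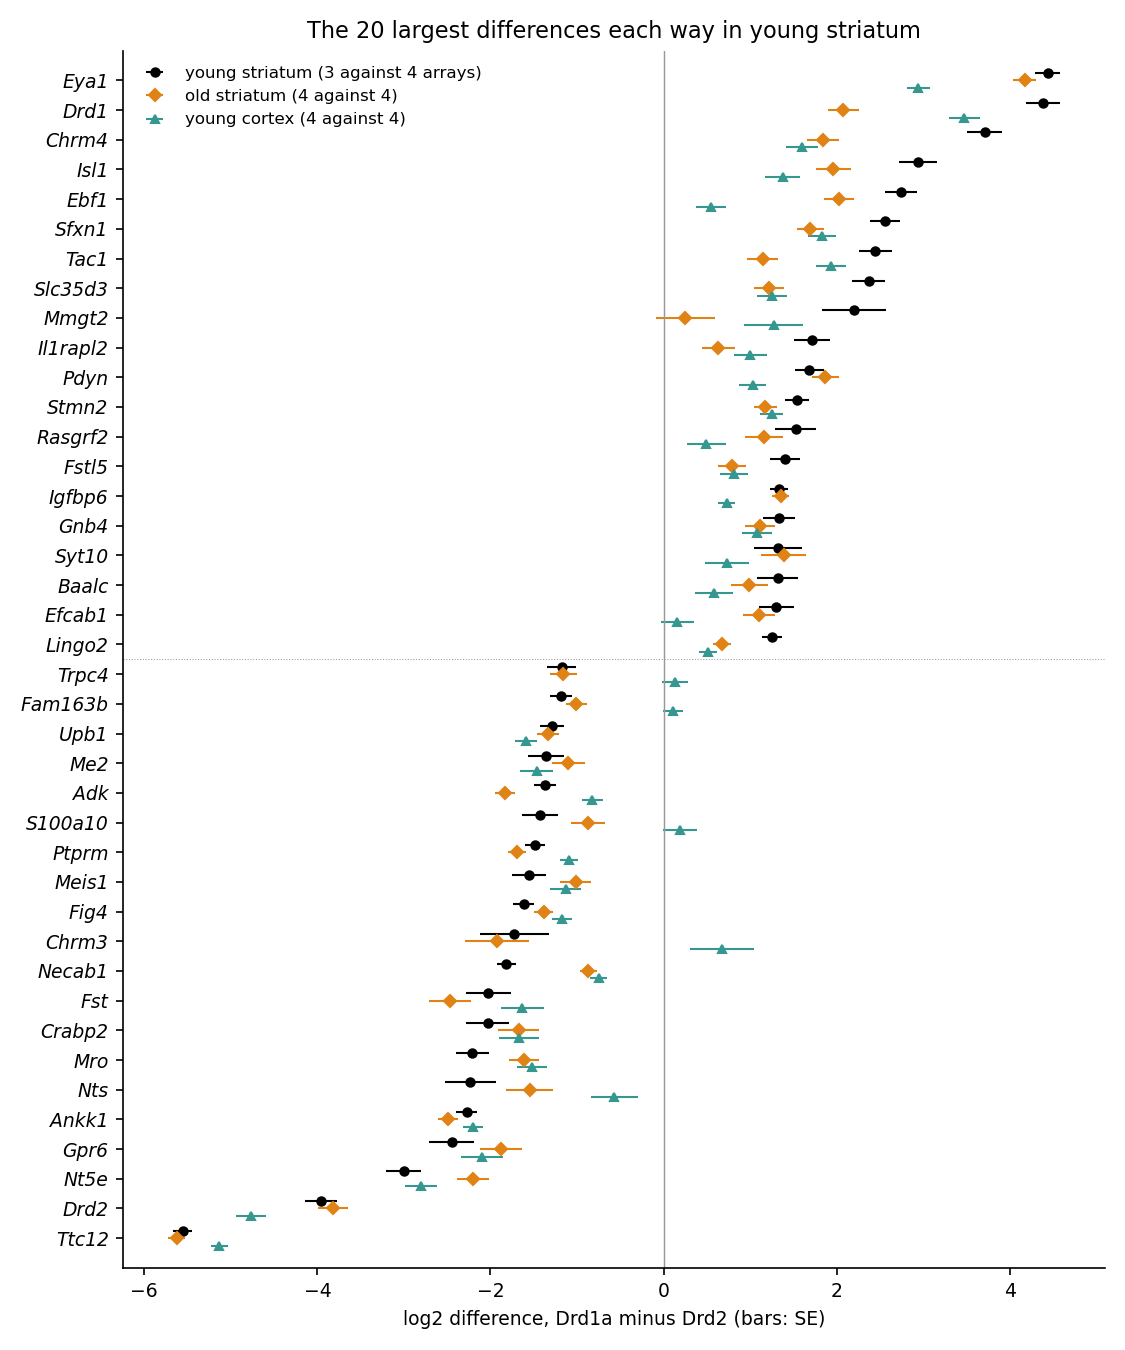
Log2 difference Drd1a minus Drd2 (horizontal axis, with SE) of the 20 genes most higher and the 20 most lower in young striatum (black circles, 3 against 4 arrays), in old striatum (orange diamonds, 4 against 4) and in young cortex (green triangles, 4 against 4). Drd1 lies at 4.38, 2.07 and 3.47, Drd2 at -3.96, -3.82 and -4.76, and Trpc4, Fam163b, S100a10 and Chrm3 lie above 0 in cortex.

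In young cortex the contrast of the same labels called 1956 features (12%), 1090 higher (6.67%) and 866 lower (5.3%). Of the 499 features called in young striatum 425 (85.2%) had the same sign in cortex, 263 were called the same way and 13 the opposite way. Here too the share of all features with the same sign is not given. The 263 were 52.7% of the striatal calls and 13.4% of the cortical ones, and 115 features were called the same way in all 3 contrasts, 52 higher and 63 lower. The features called in young striatum had a median absolute difference of 0.35 in young cortex. As they were picked on the striatal arrays, this value does not compare the regions.

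The interaction of cell type with region called 543 features (3.32%), 260 with a larger value in striatum (1.59%) and 283 with a smaller one (1.73%). Ebf1 differed by 2.74 in striatum and 0.55 ± 0.17 SE in cortex (2.19 ± 0.25 SE, adjusted p = 7.73e-06). Eya1 differed by 4.44 in striatum and 2.94 ± 0.13 SE in cortex (1.49 ± 0.20 SE), Chrm4 by 3.71 and 1.60 ± 0.18 SE (2.10 ± 0.27 SE), and Isl1 by 2.94 and 1.38 ± 0.20 SE (1.56 ± 0.30 SE). With quantile normalization the interactions of Chrm4 (0.74), Isl1 (1.05) and Chrm3 (-2.11) were not called. Those of Vip (-2.58), Tac2 (-1.55), Vegfd (-1.27), Cpne4 (-1.17), Ebf1 (1.93) and Eya1 (1.39) were called at values smaller in size. That of Prkch was called at a larger value (1.87). Prkch, a protein kinase C, was higher in striatal Drd1a cells (0.64 ± 0.18 SE) and lower in cortical ones (-1.09 ± 0.17 SE). Its striatal call was lost without any of the 7 arrays, with values of 0.51 to 0.75, while the interaction held (1.73 ± 0.25 SE, adjusted p = 8.85e-05).

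The 5 named genes with the most negative interactions were Vip, Chrm3, Tac2, Vegfd and Cpne4. Vip, the peptide of a class of cortical interneurons, stood at -0.26 ± 0.16 (SD, n = 3) in striatal Drd1a arrays, against -0.40 ± 0.16 (SD, n = 4) in striatal Drd2 arrays, whereas cortical Drd1a arrays had 4.15 ± 0.16 and cortical Drd2 arrays 0.19 ± 0.19 (SD, n = 4 each). The interaction was -3.82 ± 0.18 SE (adjusted p = 3.64e-14). Tac2, the neurokinin B precursor, differed by 0.23 ± 0.17 SE in striatum and 2.34 ± 0.16 SE in cortex (-2.10 ± 0.24 SE), and Vegfd, a vascular growth factor, by -0.061 ± 0.22 SE and 1.92 ± 0.20 SE (-1.98 ± 0.30 SE). Cpne4, a calcium-dependent membrane-binding copine, differed by -0.95 ± 0.21 SE in striatum and 1.04 ± 0.19 SE in cortex (-1.98 ± 0.29 SE), and its striatal call was lost without Drd1a replicate 2 (-0.78). Chrm3 differed by -1.73 in striatum and 0.67 ± 0.37 SE in cortex (-2.40 ± 0.54 SE, adjusted p = 0.00957), and Gabra3 by -0.98 and 0.86 ± 0.18 SE, with an interaction of -1.83 ± 0.26 SE.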

How the data were processed

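RNA bound to tagged ribosomes of Drd1a-expressing or Drd2-expressing cells was hybridised to exon arrays, 31 in all, of which 7 form the comparison. Per the submitters' processing notes the array values were made by RMA with build mm8, and the deposited table holds log2 values, which the authors' table gives centred on each feature's median over the arrays (16341 of 16345 features have a median of 0 within 1e-06). Their direction and centring follow from the values themselves, and other scaling steps stay unknown. GEO's platform annotation gave 1 gene symbol for 14793 features and several for 814, 738 are not listed there, and 14720 of 14769 genes matched RefSeq by Entrez number. In the deposited columns an empty cell and 3 values without a decimal point were set missing, which left 2 missing cells among the 7 arrays and none in named genes. No array scanner values were used, so dim probes could not be filtered.

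Limma 3.58.1 in R 4.3.3 was fitted to all 31 arrays with 8 group means, 23 residual degrees of freedom and p-values adjusted by Benjamini and Hochberg over 16345 features. Genes named are the receptors, pathway markers and neighbours, the 20 largest called differences each way without overlap of arrays (predicted genes, clones, small RNAs, pseudogenes and chemosensory receptors left out), up to 5 called members of each other list and the 5 largest called interactions each way, by the lowest feature number where a gene has several. The members and lists were chosen with earlier results of these data known. Data were simulated for 16345 features in the 31 arrays and 8 groups, with changes set in the young striatum Drd1a arrays. Limma recovered 13.4% of the features set to change 1.2-fold, 82.1% of those set to 1.5-fold and 95.5% of those set to 2-fold. The noise was independent between arrays, without the shifts of array medians seen in the data. A change set at the fold threshold itself often falls below it. Alternatives were array weights, centring, quantile normalization, robust moderation, fewer groups, a replicate block and leaving out each array. Leaving out the 6 arrays with high medians was chosen after seeing the data.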

Additional observations from a re-analysis of the deposited data

Results flagged for a closer look

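The difference between the cell types itself differed between ages or regions by limma's interaction test for the genes below, with values young minus old or striatum minus cortex. With age, the interaction was 2.31 for Drd1, 1.87 for Chrm4, 1.30 for Tac1 and -0.95 for Necab1, as described above. Gpr149, an orphan receptor, had an interaction of 1.36 ± 0.23 SE (adjusted p = 0.00798): Drd1a minus Drd2 was -0.20 in young and -1.57 in old striatum, where Drd1a arrays stood at -0.036 ± 0.19 and Drd2 arrays at 1.53 ± 0.31 (SD, n = 4 each). Its call was lost without Drd1a replicate 1 (1.28) and without the 6 arrays of high median (1.35). Gsta3, a glutathione transferase, had 1.36 ± 0.26 SE (adjusted p = 0.0277), with 0.089 in young and -1.27 in old striatum, and kept its call only without Drd1a replicate 2 or Drd2 replicate 2 (1.16 to 1.41 in the other 5 fits). Irak3, a kinase that restrains innate immune signalling, had -0.83 ± 0.17 SE, Melk, a kinase of dividing cells, had -0.69 ± 0.13 SE, and Agbl2, a carboxypeptidase acting on tubulin, had -0.49 ± 0.097 SE. The call of Irak3 was lost without any of the 7 arrays (-0.88 to -0.76), that of Melk without Drd1a replicate 1 or 3 or Drd2 replicate 1 or 3 (-0.67 to -0.60), and that of Agbl2 without these or Drd2 replicate 4 (-0.51 to -0.47). None of Gpr149, Gsta3, Irak3, Melk and Agbl2 was called between the cell types in young striatum.

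With region, the interaction was 2.19 for Ebf1, 2.10 for Chrm4, 1.73 for Prkch, 1.56 for Isl1 and 1.49 for Eya1. For Prkch the striatal difference was positive and the cortical one negative, and for the other 4 both were positive and the striatal one larger. It was -3.82 for Vip, -2.40 for Chrm3, -2.10 for Tac2, -1.98 for Vegfd and -1.98 for Cpne4. None of these 10 calls was lost by leaving out any of the 7 arrays.

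Among the 4 Drd2 arrays, 1 array stood far from the other 3 for 5 of the 101 named genes, and chance flags about 1 in 20. Ebf1 was -0.23 in Drd2 replicate 3, against -0.76 to -0.68 in the others, and Mro was 1.61 in replicate 2, against 1.06 to 1.11. Pde4dip was 0.60 in replicate 4, against 0.20 to 0.26, Gsta3 was 0.10 in replicate 2, against -0.43 to -0.35, and Tmprss5 was -0.036 in replicate 1, against 0.13 to 0.15.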

How the results depend on the processing

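Of 87 called named genes 61 kept their call without each array in turn and 54 under all 16 alternatives, and no direction reversed. The 499 calls (275 higher, 224 lower) became 286 to 490 without 1 array (160 to 273 higher, 126 to 217 lower). They became 974 with array weights (561 higher, 413 lower), 337 with quantile normalization (151 higher, 186 lower), 334 with only the 7 arrays (180 higher, 154 lower), 312 without the 6 arrays of high median (170 higher, 142 lower) and 201 at 1.5-fold (119 higher, 82 lower). The 459 calls of old striatum became 1127 with array weights. The 12 age interactions became 118 with array weights, 4 with only the 15 striatum arrays, 1 without the 6 arrays of high median and 4 to 16 without 1 array. The 543 region interactions became 1092 with array weights, 355 with quantile normalization and 382 to 486 without 1 array. Same-numbered Drd1a and Drd2 arrays deviated with correlations of 0.10, 0.040 and -0.014, and no array correlated best with its own number. The shared numbers were therefore not taken to pair them. The highest correlation, 0.31, joined Drd1a replicate 3 and Drd2 replicate 4, the arrays of high median in this comparison, and its cause was not tested. With the replicate number as a block over the 7 arrays, 223 features were called (122 higher, 101 lower) and 26 of the 101 named genes' results fell below the threshold. No Drd1a array of young striatum has the number 4, so Drd2 replicate 4 adds nothing to the difference in that block fit. With that block over the 15 striatum arrays 5 age interactions were called. Fewer samples leave fewer degrees of freedom in the fits without arrays or groups; the cause of the other shifts was not tested. Centred values keep no signal over background, so what dim probes limit cannot be told.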
